A study of Homo sapiens with 8 samples.

Results

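The genes described are the 7 DNA methylation writers and erasers DNMT1, UHRF1, DNMT3A, DNMT3B, TET1, TET2 and TET3, taken by symbol from the 25603 genes of the deposited expression table, where each of them had 1 row. The RNA came from HepG2, an established human hepatocarcinoma cell line, sequenced as bulk mRNA with paired 150 bp reads. The vehicle group (4 libraries) received 0.2% DMSO, and the EZHi group (4 libraries) received UNC1999 and Valmetostat Tosylate (valemetostat), inhibitors of EZH1 and EZH2, at 1 µM each. Both groups were cultured for 4 days in the same medium, the labels name no genetic change, and HepG2 being a single tumour line limits the groups as a model of liver cells. EZH1 and EZH2 are the catalytic subunits of PRC2, which methylates histone H3 on lysine 27, so the comparison asks how the transcripts of the DNA methylation machinery stood after this histone mark was targeted.

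DNA methylation in mammals is laid down at CpG dinucleotides by writers and removed by erasers. DNMT1 is the maintenance methyltransferase that copies methylation to the new strand during replication, and UHRF1 recognises hemimethylated DNA and brings DNMT1 to it. DNMT3A and DNMT3B are the de novo methyltransferases. TET1, TET2 and TET3 are dioxygenases that oxidise methylcytosine, a step toward its removal. PRC2 mostly occupies CpG-rich promoters that lack DNA methylation, and DNA methylation patterns are widely altered in liver tumours.

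The promoters of DNMT1, UHRF1 and TET1 are printed, a choice made after their expression values were seen. In both groups DNMT1, UHRF1 and the mean of a list of replication and proliferation genes were lowest in the library numbered 3. TET1 was highest there. Each sequence runs 5′ to 3′ on the strand of its gene, from 250 bases before to 50 bases after the RefSeq start site on GRCh38.p14. Capitals mark a match to an E2F-type motif on the strand opposite to the gene. The windows are chr19:10194904-10195203 (minus strand) for DNMT1, chr19:4909251-4909550 (plus strand) for UHRF1 and chr10:68560087-68560386 (plus strand) for TET1.
DNMT1: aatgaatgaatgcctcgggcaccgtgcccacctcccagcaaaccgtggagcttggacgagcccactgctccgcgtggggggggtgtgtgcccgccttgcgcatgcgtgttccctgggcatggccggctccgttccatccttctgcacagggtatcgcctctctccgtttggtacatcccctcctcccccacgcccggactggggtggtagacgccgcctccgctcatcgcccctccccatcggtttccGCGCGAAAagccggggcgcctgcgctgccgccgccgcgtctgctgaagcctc
UHRF1: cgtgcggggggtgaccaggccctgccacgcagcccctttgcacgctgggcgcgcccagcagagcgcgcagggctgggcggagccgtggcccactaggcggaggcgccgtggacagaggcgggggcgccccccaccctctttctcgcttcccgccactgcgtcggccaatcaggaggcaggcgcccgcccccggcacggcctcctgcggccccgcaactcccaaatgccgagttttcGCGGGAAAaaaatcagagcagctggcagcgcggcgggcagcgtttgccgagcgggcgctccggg
TET1: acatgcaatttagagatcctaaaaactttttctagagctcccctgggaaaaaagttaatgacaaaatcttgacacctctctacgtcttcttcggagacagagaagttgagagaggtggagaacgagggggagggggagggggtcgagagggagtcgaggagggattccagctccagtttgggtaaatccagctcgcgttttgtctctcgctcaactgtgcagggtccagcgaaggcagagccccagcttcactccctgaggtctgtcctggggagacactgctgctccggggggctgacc

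The motifs searched on both strands were TTTCCCGC, TTTGGCGC, TTTCGCGC and TTTGCCGC, which share their first bases but cannot match at the same position on the same strand. DNMT1 held TTTCGCGC, read as GCGCGAAA on the gene's strand and starting 2 bases before the start site. UHRF1 held TTTCCCGC, read as GCGGGAAA and starting 14 bases before the start site. None of these letters occurred in the windows of the other 5 genes. Of all 27305 promoters of the same length, 3.34% held a match, as did 5.06% of the 12004 promoters of tested genes. Of the 20 promoters found for the list of replication and proliferation genes, 12 held a match. That list was drawn by function and holds E2F1 and E2F2 themselves, so its share is no background. A match describes the letters and not a bound site. Whether E2F factors had a part in the expression values was not tested. The number of CpG dinucleotides in the window was 30 for DNMT1, 36 for UHRF1, 18 for DNMT3A, 10 for TET1, 13 for TET2 and 45 for TET3, against a median of 25 over tested genes. The DNMT3B window held 3 CpG, and its start site lies 17467 bases inside the GENCODE gene. The DNMT1 start site likewise lies 36333 bases inside the GENCODE gene and that of UHRF1 6421 bases inside. Start sites of these 3 genes nearer to the GENCODE start were therefore not examined. RefSeq listed 6 start sites for DNMT3A, 3 each for UHRF1 and TET1, and 2 each for TET2 and TET3. Only the most upstream of them was searched. The lack of a match in DNMT3A, TET1, TET2 and TET3 therefore holds for that window alone.

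Values are the deposited length-corrected log2 values, and differences are EZHi minus vehicle on that scale. To give levels a familiar size, they are also written as estimated FPKM, a rescaling of the same values. Over the 20153 genes that passed a mean estimated FPKM of 0.1, limma's moderated test with Benjamini-Hochberg adjustment called 13.1% of genes at an adjusted p under 0.05 when only the treatment was in the fit. The replicate numbers of the labels were shared by libraries that deviated together, and a second fit with the replicate number as a block, comparing libraries of equal number, called 30.0%. The deposited table carries no read totals, so depth is unknown. The study describes the 4 replicates of each group as biologically independent, and the labels do not say what a replicate number stands for.

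All 7 genes passed the filter. Without the block none of the 7 was called, against 8.85% of all genes called higher and 4.27% called lower, although DNMT3A, DNMT3B and TET2 had an unadjusted p under 0.05. With the block 5 were called, of which DNMT1, UHRF1 and TET1 fell (against 15.1% of all genes called lower) and DNMT3A and DNMT3B rose (against 14.9% called higher). Of these 5 calls TET1 alone was left without pair 4, and 4 were left without pair 2 or pair 3. Each of the 7 kept its direction in 4 of 4 pairs, which held for 44.8% of all genes tested. With 4 pairs, an exact two-sided sign-flip test of a single gene cannot go below p = 0.125. The differences were small, between −0.40 and 0.23, and the median size among the 6051 genes called with the block was 0.35. Among the 13007 genes of at least 1 estimated FPKM, where all 7 lie, 12.5% were called without and 35.4% with the block. A shift by expression level also ran through the data. The 7809 genes of at least 10 estimated FPKM had a median difference of −0.09, and with the block 32.5% of them were called lower and 8.20% higher. The 5198 genes from 1 to under 10 had a median of 0.03, with 8.16% called lower and 19.3% higher.

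**Figure D1:**
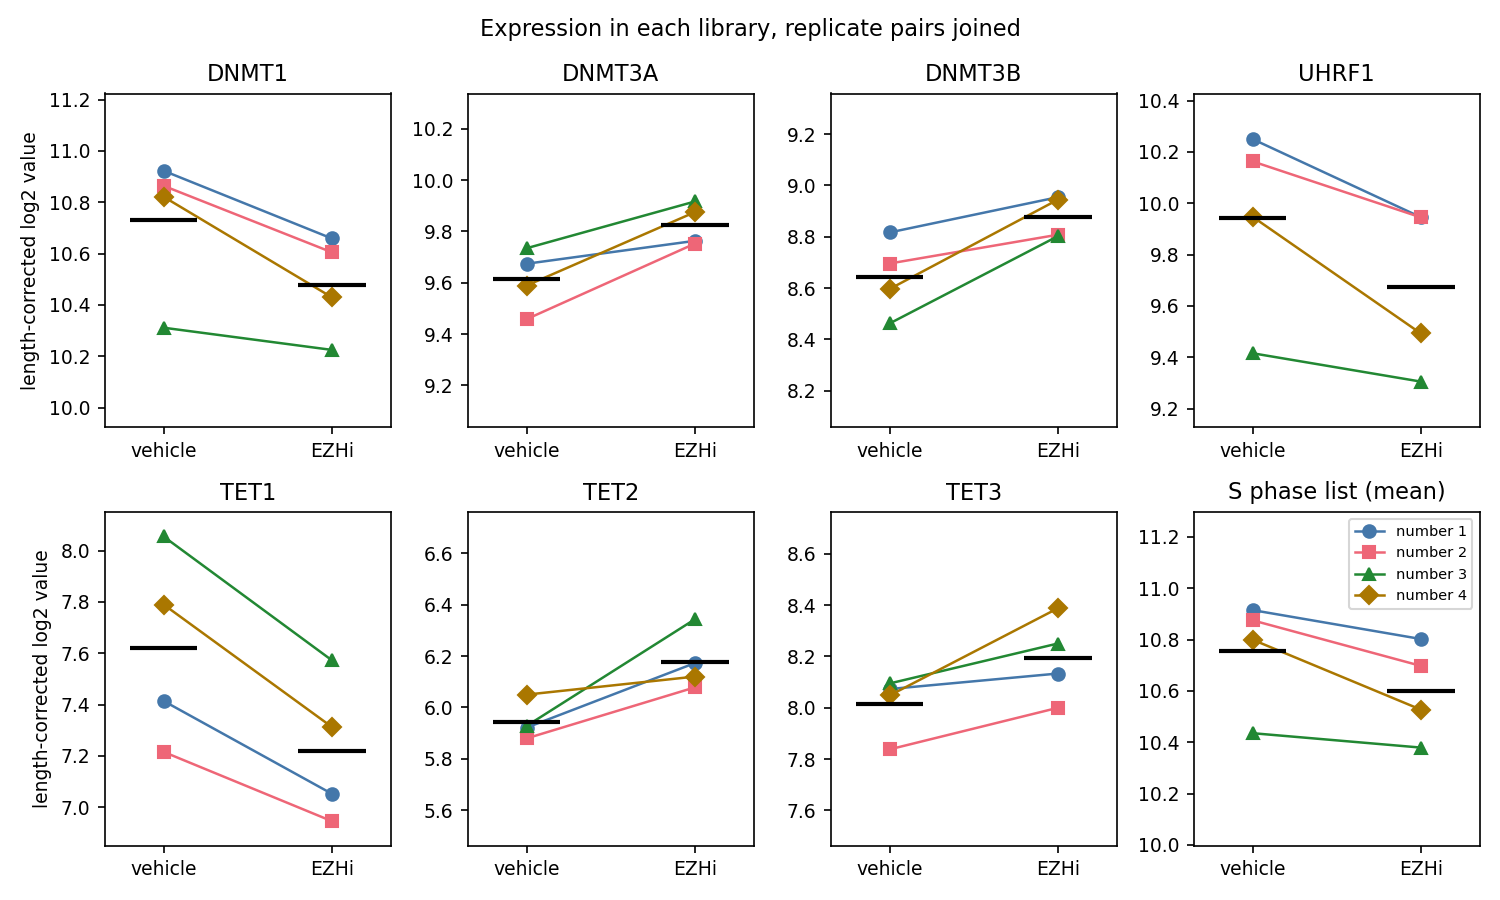
Length-corrected log2 value (vertical axis, a range of the same width in each panel) of each gene and of the mean of 23 replication and proliferation genes in the 4 vehicle and 4 EZHi libraries, with libraries of equal replicate number joined and group means as black bars. All lines of DNMT1, UHRF1 and TET1 slope down and all lines of DNMT3A, DNMT3B, TET2 and TET3 slope up, while for DNMT1, UHRF1, DNMT3B, TET1 and TET3 the groups overlap.

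DNMT1 was the most abundant of the 7 genes and was called lower in the fit with the block only. Its log2 values were 10.92, 10.86, 10.31 and 10.82 in vehicle libraries 1 to 4 and 10.66, 10.60, 10.22 and 10.43 in EZHi libraries 1 to 4. Vehicle library 3 lay below 3 of the EZHi libraries, so the groups overlapped. The means were 10.73 ± 0.28 and 10.48 ± 0.20 (SD, n = 4), a difference of −0.25 or 0.841 times the vehicle level. Without the block its SE was 0.14, the 95% interval ran from −0.57 to 0.073, and limma's adjusted p was 0.314. With the block the SE was 0.055, the interval ran from −0.37 to −0.13, and the adjusted p was 0.00857. The fall within pairs ranged from −0.39 in pair 4 to −0.087 in pair 3. The call with the block was lost when pair 4 was left out (adjusted p = 0.0513) and under quantile normalization (difference −0.14, adjusted p = 0.0639).

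Vehicle library 3 decided the fit without the block for DNMT1. Leaving that library out gave a difference of −0.39 with an adjusted p of 0.0411, and leaving out both libraries numbered 3 gave −0.30 with an adjusted p of 0.0417.

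UHRF1, the partner of DNMT1 in maintenance, had the same profile. The vehicle values were 10.25, 10.16, 9.42 and 9.95, and those of the EZHi libraries were 9.95, 9.94, 9.31 and 9.49. The libraries numbered 3 were again the lowest of their groups, and the groups overlapped. The mean moved from 9.94 ± 0.37 to 9.67 ± 0.32, a difference of −0.27 (SE 0.20, 95% interval −0.72 to 0.18, adjusted p = 0.446 by limma without the block). With the block the SE was 0.060, the interval −0.41 to −0.13 and the adjusted p 0.00930. Within pairs the difference lay between −0.45 and −0.11. Without pair 4 the adjusted p with the block was 0.0508.

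**Figure D2:**
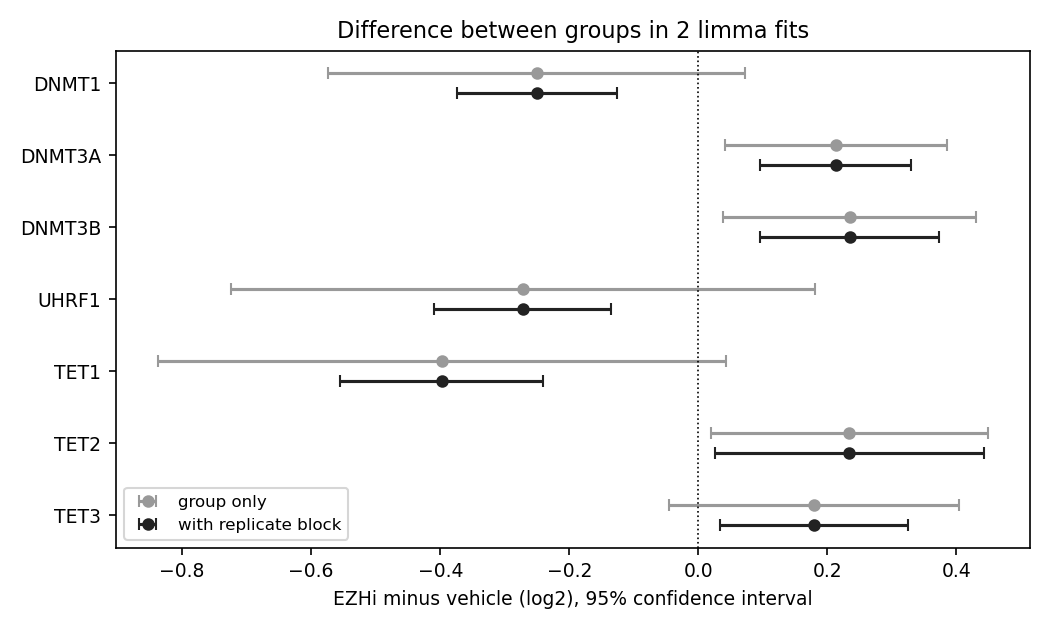
EZHi minus vehicle difference in log2 (horizontal axis) with its 95% confidence interval for each gene, from the limma fit with the treatment only (grey) and with the replicate block (black). The intervals of DNMT1, UHRF1, TET1 and TET3 cross 0 only in the fit without the block, and those of DNMT3A, DNMT3B and TET2 lie above 0 in both fits.

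Transcripts of the maintenance pair are known to peak with DNA replication, and a list of 23 replication and proliferation genes was read beside them. The mean log2 value over the list was 10.91, 10.87, 10.44 and 10.80 in the vehicle libraries and 10.80, 10.70, 10.38 and 10.53 in the EZHi libraries, lower in 4 of 4 pairs with a difference of −0.15. Its pair differences were −0.11, −0.18, −0.056 and −0.27, narrowest in pair 3 and widest in pair 4, as for DNMT1 and UHRF1. Library 3 held the lowest value for 20 of the 23 genes among vehicle libraries and for 19 of 23 among EZHi libraries. How often library 3 was lowest over all genes tested was not counted, so these counts have no background. Over all genes tested the libraries numbered 3 also deviated together from their group means, with a correlation of 0.63. Without the block CCNA2, a cyclin of S phase and mitosis, fell by 0.36 and CDT1, a replication licensing factor, fell by 0.32, with limma adjusted p of 0.0270 and 0.0357. Both of these calls were lost without any of vehicle libraries 1, 2 and 4 and EZHi libraries 2, 3 and 4 (adjusted p up to 0.0797 and 0.101) and under quantile normalization (0.0858 and 0.124). With the block 13 of the 23 genes were called lower and CCNE1, a G1 to S cyclin, was called higher. Of the 21 genes of the list at or above 10 estimated FPKM 12 were called lower (57.1%), against 32.5% of all genes at that level, and the list median was −0.18 against −0.09 for those genes. DNMT1 and UHRF1 are not in this list, and whether the share of replicating cells had a part in their values was not tested.

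Replicates of the same group differed by more than the group means did in both groups for DNMT1, UHRF1, TET1 and TET3. The same held in the vehicle group for DNMT3A and DNMT3B and in the EZHi group for TET2. Relative to its group mean, DNMT1 stood at −0.42 in vehicle library 3 and at −0.25 in EZHi library 3. UHRF1 stood at −0.53 and −0.37 in the same libraries, and the replication list at −0.32 and −0.22. TET1 went the other way, at 0.44 and 0.35. The summed level of 9 hepatocyte markers was also highest in the libraries numbered 3, at 46000 estimated FPKM in vehicle and 42201 in EZHi, while the other 6 libraries lay between 23841 and 32333. ALB and AFP made up most of this sum. Taken singly, ALB, AFP, APOA1, APOB, APOH, TTR and SERPINA1 were highest in library 3 of both groups, and HNF4A and FGB in library 4. What set the libraries numbered 3 apart was not tested.

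**Figure D3:**
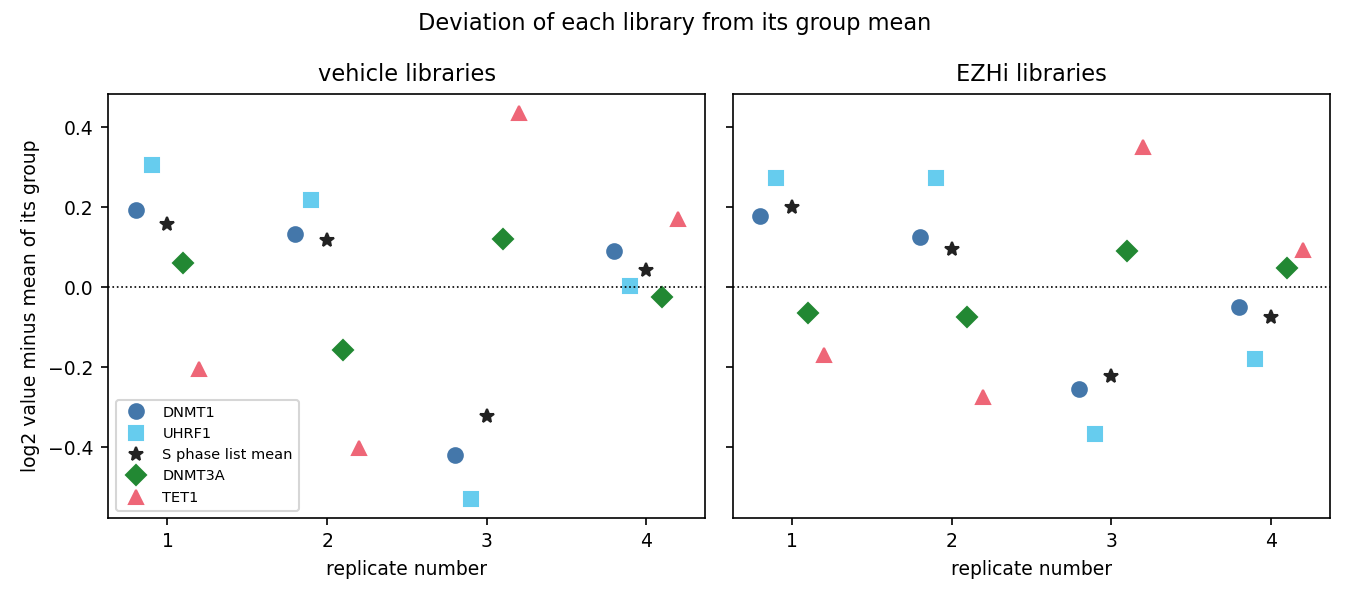
Deviation of each library from the mean of its own group in log2 (vertical axis) by replicate number (horizontal axis), vehicle on the left and EZHi on the right, for DNMT1, UHRF1, DNMT3A, TET1 and the mean of the replication list. In both groups DNMT1, UHRF1 and the replication list were lowest in library 3, where TET1 was highest.

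Both de novo methyltransferases were called higher in the fit with the block and not in the fit without it, at the same differences. DNMT3A, which methylates unmethylated CpG and is the main de novo enzyme of many adult tissues, read 9.67, 9.46, 9.73 and 9.59 in vehicle and 9.76, 9.75, 9.92 and 9.87 in EZHi libraries. The lowest EZHi value was above the highest vehicle value, a separation found for 18.6% of all genes tested. The means were 9.61 ± 0.12 and 9.83 ± 0.08, a difference of 0.21 or 1.16 times the vehicle level. The interval was 0.041 to 0.38 without the block (SE 0.077, adjusted p = 0.106 by limma) and 0.096 to 0.33 with it (SE 0.051, adjusted p = 0.0138). Pair differences ran from 0.089 to 0.29. With the block the adjusted p was 0.0575 without pair 2 and 0.0779 without pair 4. Under quantile normalization the difference was 0.30 and passed the test without the block (adjusted p = 0.0388).

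DNMT3B, the de novo enzyme known for methylating repeats near centromeres and for its activity in early embryos and many tumours, read 8.82, 8.70, 8.46 and 8.60 in vehicle cells. In EZHi cells it read 8.95, 8.81, 8.80 and 8.94. Vehicle library 1 reached into the range of the EZHi libraries. The mean was 8.64 ± 0.15 in vehicle and 8.88 ± 0.08 in EZHi cells, a difference of 0.23. With the block it was called higher (SE 0.061, 95% interval 0.096 to 0.37, limma adjusted p = 0.0190). Without the block the SE was 0.088, the interval 0.038 to 0.43 and the adjusted p 0.117. The pairs spanned 0.11 to 0.35. With the block the call was lost without pair 3 (adjusted p = 0.0890) and without pair 4 (0.103).

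Among the genes of at least 1 estimated FPKM, the 3 whose centred profile over the 8 libraries was nearest to that of DNMT3A, the gene with the smallest p without the block (with the block it is TET1), were GOLT1A, OSGIN1 and ZNF70. Their root mean square distances were 0.037, 0.037 and 0.043 on the log2 scale, against a median of 0.23 over the 13006 genes compared. DNMT3A itself varied by 0.14 around its mean, so a gene that hardly varied would also lie near.

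Taken per kilobase, the make-up of the methyltransferase transcripts differed between the groups, a difference that was not tested. DNMT1 made up 58.8% ± 5.07 of the summed estimated FPKM of DNMT1, DNMT3A and DNMT3B in vehicle cells and 50.9% ± 4.14 in EZHi cells (SD, n = 4), and was lower in 4 of 4 pairs. DNMT3A made up 27.4% ± 4.82 and then 32.4% ± 3.58. The share of DNMT3B was 13.05% to 14.3% in the vehicle libraries and 15.6% to 17.5% in the EZHi libraries. The groups did not overlap by this share, although they did by the level of DNMT3B. How often such shares separate in other gene families was not examined. The shares add up to the whole, so a lower share of DNMT1 raises the others. These shares do not depend on how the libraries were scaled to each other by a common factor. Their size does depend on the transcript length used for each gene.

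**Figure D4:**
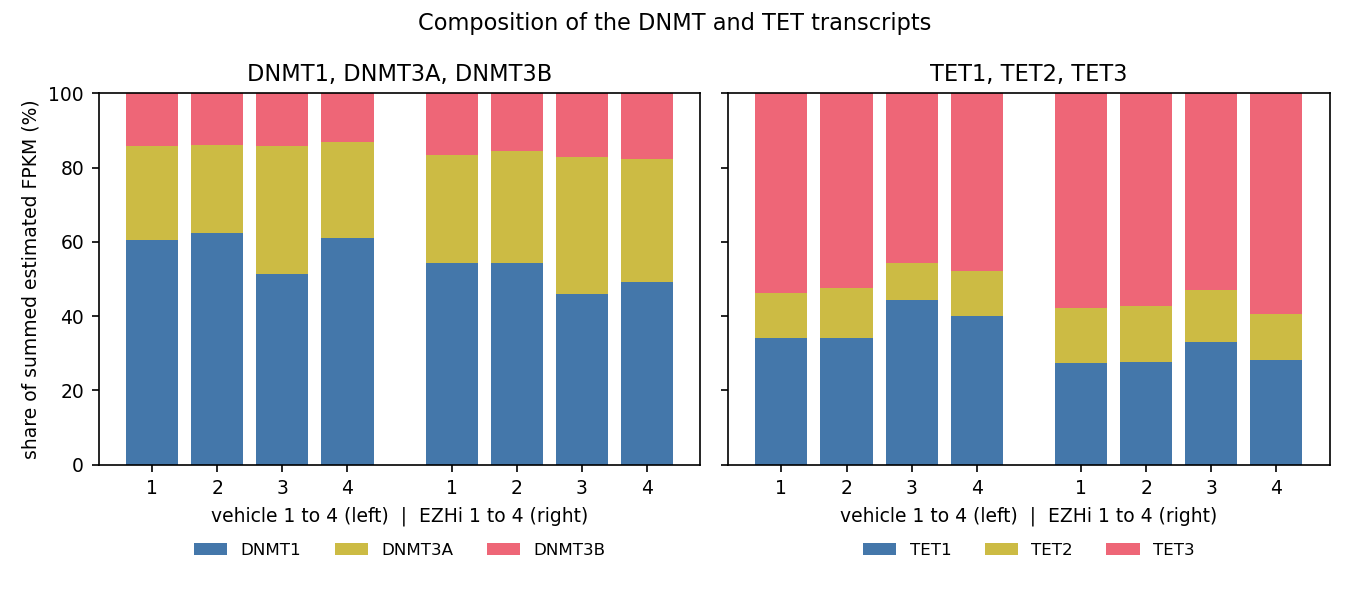
Share in percent (vertical axis) of each gene in the summed estimated FPKM of the 3 methyltransferases (left) and the 3 TET genes (right), with 1 bar for each vehicle and EZHi library. DNMT1 takes 51.3% to 62.5% of its sum in vehicle and 45.9% to 54.3% in EZHi libraries, and TET1 takes 34.1% to 44.3% and then 27.3% to 33.0%.

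Of the erasers, TET1 was called lower in the fit with the block, and TET2 and TET3, both with higher means in EZHi cells, passed in neither fit. TET1, which like TET3 carries a CXXC domain that binds CpG-rich DNA, had the widest difference of the 7 genes. It read 7.41, 7.22, 8.05 and 7.79 in vehicle libraries and 7.05, 6.95, 7.57 and 7.31 in EZHi libraries. The spread within each group was as large as the shift, and the groups overlapped. The means were 7.62 ± 0.38 and 7.22 ± 0.28, a difference of −0.40 or 0.759 times the vehicle level (SE 0.20, 95% interval −0.84 to 0.043, adjusted p = 0.235 by limma). With the block the SE was 0.069, the interval −0.55 to −0.24 and the adjusted p 0.00276. The fall was −0.36, −0.27, −0.48 and −0.48 in the 4 pairs. TET1 was the 1 gene of the 7 called with the block whichever pair was left out, with adjusted p between 0.00751 and 0.0209. It was also called with the block under quantile normalization (−0.45, adjusted p = 0.00126) and when centred on genes of at least 10 estimated FPKM (−0.32, adjusted p = 0.00633).

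TET2, the dioxygenase without a CXXC domain of its own, was the least abundant member. Its values were 5.92, 5.88, 5.93 and 6.05 in vehicle and 6.17, 6.08, 6.34 and 6.12 in EZHi libraries, and the groups did not overlap. The means were 5.94 ± 0.07 and 6.18 ± 0.12, a difference of 0.23 that missed the threshold without the block (95% interval 0.019 to 0.45, adjusted p = 0.152 by limma) and with it (0.025 to 0.44, adjusted p = 0.0889). The pair differences were uneven, from 0.070 in pair 4 to 0.42 in pair 3. The difference was 0.098 under quantile normalization.

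TET3, best known for oxidising the paternal genome in the zygote, read 8.07, 7.84, 8.09 and 8.05 in vehicle libraries and 8.13, 8.0, 8.25 and 8.39 in EZHi libraries. EZHi library 2 fell within the vehicle range. The means were 8.01 ± 0.12 and 8.19 ± 0.17, a difference of 0.18 (95% interval −0.045 to 0.40, adjusted p = 0.296 by limma). With the block the interval was 0.034 to 0.33 and the adjusted p 0.0654. Without EZHi library 4 the difference was 0.11 in the fit without the block. Centring on genes of at least 10 estimated FPKM together with the block carried TET2 (0.31, limma adjusted p = 0.0346) and TET3 (0.25, adjusted p = 0.0167) past the threshold. This centring added a constant to every gene and moved the median difference of all genes from −0.0077 to 0.068. More of all genes were called higher with it than with the block alone, so these 2 calls are not particular to TET2 and TET3.

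Within the TET family, TET1 supplied 38.1% ± 4.99 of the summed estimated FPKM in vehicle cells and 29.0% ± 2.69 in EZHi cells, with no overlap between the groups. This separation, too, was not set against other gene families. TET3 supplied 49.9% ± 3.85 and 56.9% ± 2.81, and TET2 11.9% ± 1.37 and 14.1% ± 1.25. The shares of both were higher in 4 of 4 pairs. As the shares of a family add up to the whole, a lower share of TET1 raises the others. The rise of the TET2 and TET3 shares is therefore no result apart from TET1.

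By level per kilobase, the writers stood above the erasers. The authors used a length averaged over all annotated transcripts of a gene, and the order between genes depends on it. In GENCODE this average was 2.86 kb for DNMT1, 3.31 kb for UHRF1, 2.65 kb for DNMT3A and 2.49 kb for DNMT3B. For the erasers it was 4.89 kb for TET3, 9.61 kb for TET1 and 6.16 kb for TET2. The order without this correction was not examined. Mean estimated FPKM in vehicle cells was 67.2 ± 11.9 for DNMT1, 39.4 ± 9.28 for UHRF1, 30.7 ± 2.51 for DNMT3A and 15.7 ± 1.63 for DNMT3B. For the erasers it was 10.1 ± 0.80 for TET3, 7.87 ± 2.05 for TET1 and 2.41 ± 0.12 for TET2 (SD, n = 4). Neighbours in this order had separate ranges, except UHRF1 and DNMT3A, where UHRF1 was above in 3 of 4 libraries, and TET3 and TET1, where TET3 was above in 4 of 4 libraries. In EZHi cells the levels were 56.2 ± 7.41 for DNMT1, 35.5 ± 2.01 for DNMT3A, 32.5 ± 7.12 for UHRF1, 18.4 ± 1.06 for DNMT3B, 11.5 ± 1.32 for TET3, 5.91 ± 1.17 for TET1 and 2.84 ± 0.24 for TET2. DNMT3A and UHRF1 overlapped there, each being above the other in 2 libraries, while TET3 and TET1 no longer overlapped. Among the genes tested, DNMT1 lay at percentile 89.5 of expression and TET2 at 45.8.

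In the GENCODE annotation of GRCh38 all 7 are protein-coding genes. DNMT1 spans chr19:10133342-10231286 (minus strand), UHRF1 chr19:4903080-4962154 (plus), DNMT3A chr2:25227855-25342590 (minus) and DNMT3B chr20:32762385-32809359 (plus). TET1 spans chr10:68560337-68694487, TET2 chr4:105145875-105279816 and TET3 chr2:73984910-74108176, all on the plus strand. Reads were counted over exons without regard to strand, so reads of overlapping genes cannot be told apart by strand. S1PR2, a lipid receptor gene on the strand of DNMT1, shares 83 exon bases with it (0.540% of its exon bases) and read 3.96 to 4.38 across the libraries. ENSG00000235499 shares 390 exon bases with TET3 (3.01%). The pseudogenes COX20P1 and RPS3AP37 lie inside TET1 without shared exon bases, with values of 5.21 to 6.03 and −0.39 to −0.15. MIR4322, MIR1301, MIR4747, TET2-AS1 and ENSG00000279181 overlap DNMT1, DNMT3A, UHRF1, TET2 and TET3 and share no exon bases with them. The copies DNMT3AP1 and TET1P1 had no row among the deposited values and could not be analysed. How reads common to them and their parent genes were counted is uncertain.

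The targeted enzymes did not pass the test. EZH2 differed by −0.06 (limma adjusted p = 0.806) and EZH1 by −0.07 (0.573), and both were so near 0 that centring, which adds a constant to every gene and moved the median of all genes from −0.0077 to 0.068, gave 0.020 and 0.010. The PRC2 subunits EED and SUZ12 each differed by −0.11 (adjusted p = 0.590 and 0.399). None of the 4 was called with the block, and transcript level does not measure inhibition of the enzymes.

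The genes that work with the writers and erasers were read from 6 lists, the replication list among them, holding 87 distinct tested genes, of which 5 were called higher and 6 lower without the block, and 11 higher and 32 lower with it. Without the block these are 5.75% higher and 6.90% lower, against 8.85% and 4.27% of all genes. With the block the 11 are 12.6%, against 14.9% of all genes called higher. The 32 are 36.8% of the 87, against 15.1% over all genes, but 67 of the 87 lie at or above 10 estimated FPKM, where 44.8% of the listed genes and 32.5% of all genes were called lower. Of 16 tested writer cofactors, ATF7IP, a partner of the histone methyltransferase SETDB1, rose by 0.46 (8.03 ± 0.06 to 8.49 ± 0.08, limma adjusted p = 0.00215). NSD2, which methylates histone H3 on lysine 36, fell by 0.28 (10.33 ± 0.03 to 10.04 ± 0.05, adjusted p = 0.00725), a call lost under quantile normalization (0.0556). The median of this list was −0.07, with 1 gene called higher and 5 lower with the block. PCNA, the replication clamp that UHRF1 and DNMT1 work beside, was among those 5 (−0.26, adjusted p = 0.00588 with the block).

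Of 20 tested partners of the erasers and base excision repair genes, 2 were called higher and 2 lower, and 4 and 7 with the block, with a median of −0.07. SALL4, an oncofetal zinc finger protein that binds oxidised cytosine, rose from 4.89 ± 0.07 to 7.43 ± 0.28, by 2.54 (limma adjusted p = 5.44e-06), where the widest difference of the 7 writers and erasers was −0.40. CXXC4, which binds CpG-rich DNA and is a TET2 partner, read 1.03 ± 0.01 and 1.70 ± 0.11. At 0.080 and 0.127 estimated FPKM it passed the filter only through the EZHi group, where it is high, so its call is no support for a rise, and without it the 6 lists held 4 genes called higher (10 with the block). HMCES, which reads abasic sites, fell by 0.31 (adjusted p = 0.0113), and IDH2, which makes the ketoglutarate that TET enzymes use, fell by 0.24 (adjusted p = 0.0348). The IDH2 call was lost without vehicle library 1 or 4 or EZHi library 3 or 4 (adjusted p up to 0.105) and under quantile normalization (0.185).

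Of 9 tested methyl-CpG readers, ZBTB33 (Kaiso) rose by 0.37 (limma adjusted p = 0.0150), a call lost without both libraries numbered 3 (0.0520), and 4 others were called lower with the block. The median was −0.11. Of 17 genes of the methyl donor cycle, BHMT, which remakes methionine from homocysteine with betaine, rose from 6.23 ± 0.29 to 7.71 ± 0.53 (difference 1.49, adjusted p = 0.00338). SHMT1, a folate cycle enzyme, fell by 0.42 (adjusted p = 0.00287). With the block 3 genes of this list were called higher and 5 lower, about a median of −0.0018.

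Of 39 germline genes known to be silenced by promoter methylation, 10 had a row and 4 passed the filter. None of the 4 was called without the block. TEX15, a germ cell gene, was called higher with it, at 2.20 ± 0.81 and 2.88 ± 0.64 (difference 0.68, limma adjusted p = 0.334 without and 0.00170 with the block). Vehicle library 3 read 1.08 where the others read 2.30 or more, and without the block the difference was 0.31 without that library and 1.00 without EZHi library 3.

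**Figure D5:**
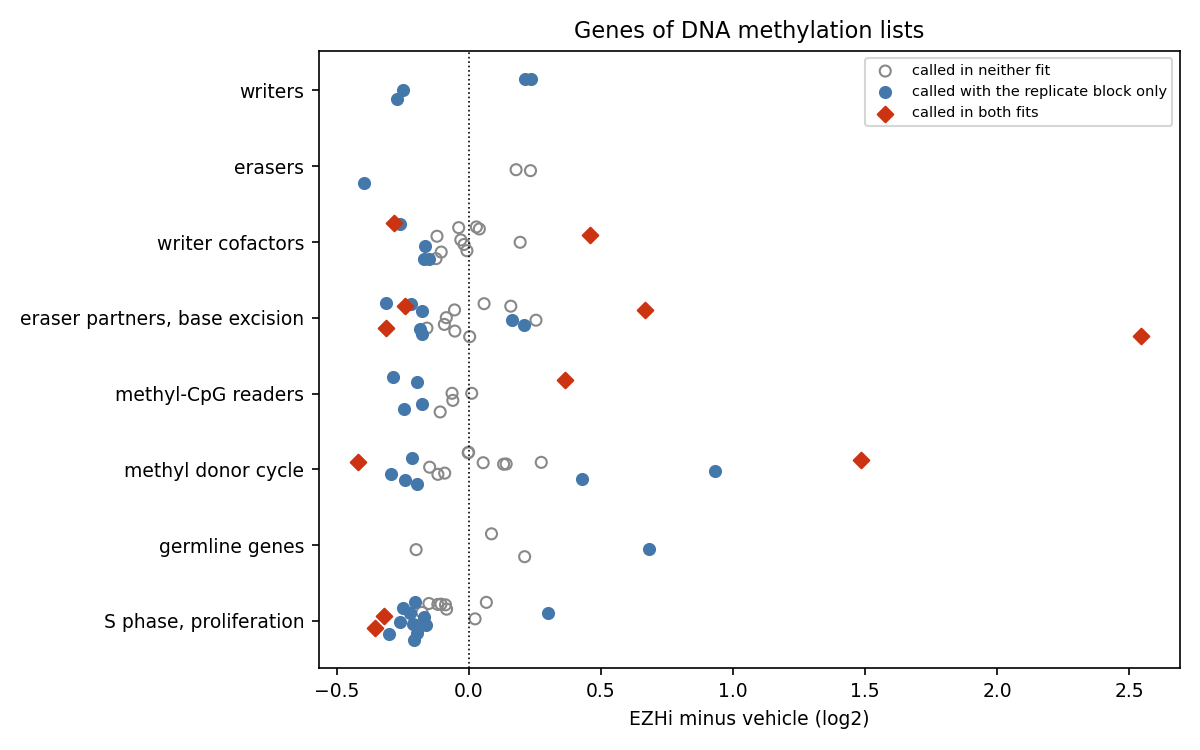
EZHi minus vehicle difference in log2 (horizontal axis) of each tested gene of the writers, the erasers and 6 further lists (rows, with points spread vertically for legibility). Red diamonds were called in both limma fits, blue points with the replicate block only, and open circles in neither, and SALL4 at 2.54 and BHMT at 1.49 stand apart on the right.

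All 9 hepatocyte markers were present. Of these FGB rose by 0.92 (limma adjusted p = 0.00167 without the block), and with the block APOB, APOH and APOA1 were also called higher and ALB lower. Of the endothelial markers, 3 of 4 had a row, KDR being without one, and their summed level was 2.26 to 2.72 estimated FPKM in vehicle and 3.42 to 7.21 in EZHi libraries. CDH5 rose by 2.28 and VWF by 1.45 (limma adjusted p = 0.00411 and 0.00537), while PECAM1 differed by 0.042 (0.867). Of the leukocyte markers 2 of 5 had a row, with sums of 0.66 to 1.42 and 0.67 to 1.14, and PTPRC, the pan-leukocyte marker, was without one. Of the fibroblast or stellate markers 3 of 5 had a row, COL1A2 and LUM being without one, with sums of 12.3 to 15.0 and 14.8 to 17.3. All 4 cholangiocyte markers were present, with sums of 499 to 814 and 616 to 855, and the part of other cell types in the differences was not tested. In bulk RNA, fewer cells expressing a gene and less RNA of it per cell cannot be told apart.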

How the data were processed

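Bulk mRNA libraries of HepG2 cells (4 vehicle, 4 EZHi) were used. According to the methods and the processing notes, the authors mapped reads to hg38 with HISAT2 (2.2.1) and counted them over exons with HTSeq (0.9.1, union mode, unstranded, minimum alignment quality 10). Genes with fewer than 10 reads over all samples were removed, and the authors normalized the counts with DESeq2 (1.40.2). Some versions and the DMSO concentration differ between the methods text and the labels, and the labels were followed. The authors deposited log2 values, regularized and corrected for transcript length, in a table named for FPKM, so values were tested as deposited, without a further log or a pseudocount in the main test. They ranged from −6.81 to 19.0. The table holds no counts, so depth and counting error are unknown.

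Of 25604 rows, 1 gave a gene ID again with equal values, and 5614 genes carried no symbol. Estimated FPKM was the antilog divided by 25.6, the mean over libraries of the sum of antilog times transcript length, expressed in gigabases (24.4 to 27.3 by library). Genes with a mean of at least 0.1 were kept. Groups were compared with limma 3.58.1 in R 4.3.3 (linear model, trended prior, two-sided, Benjamini-Hochberg over 20153 genes), a test checked on simulated data. Figures were drawn in Python 3.11.15.

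Libraries of equal replicate number deviated together from their group means (correlations over genes 0.31, 0.56, 0.63 and 0.22 for numbers 1 to 4), each above 0.1. Among unequal numbers, vehicle 1 with EZHi 2 (0.20) and vehicle 2 with EZHi 1 (0.16) also lay above 0.1, near the value of number 4. The remaining unequal numbers lay between −0.58 and 0.076. The fit with a replicate block is therefore given beside the fit without it. This pairing comes from the data and the shared numbers, as the labels do not say what a number stands for. Alternatives were other filters, pseudocounts, quantile normalization, centring, an untrended prior, the block, and leaving out libraries. Leaving out pairs or both libraries numbered 3, and the block with another scaling, were chosen after seeing the data.

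The genes and lists were chosen with earlier results of these data known. All 7 genes are named, with up to 3 genes of each further list called with the largest rise and up to 3 with the largest fall (where none was called, the gene with the smallest p), the 4 PRC2 genes, every gene overlapping a member, and the 3 genes nearest in profile to the member with the smallest p in the fit without the block (DNMT3A). PCNA and CCNE1, and the marker genes, were named outside this rule, PCNA and CCNE1 after their values were seen. Promoters were taken from RefSeq (GRCh38.p14), matched by symbol for 7 of 7 genes, at the most upstream start listed.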

Additional observations from a re-analysis of the deposited data

Results flagged for a closer look

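In 3 of 46 groups of 4 libraries examined, 1 library lay far from the other 3 by Dixon's gap, against about 2.3 groups by chance (1 in 20). DNMT1 in vehicle library 3 read 10.31, while the other vehicle libraries read 10.82 to 10.92, a gap of 0.834 of the group's range. ATF7IP in vehicle library 1 read 8.11 against 7.99 to 8.01 in the others, a gap of 0.841 of the range. ATF7IP in EZHi library 3 read 8.62 against 8.44 to 8.45, a gap of 0.961 of the range.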

How the results depend on the processing

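Over 23 alternatives for each of the 7 genes, none of the 161 differences changed sign. Requiring an estimated FPKM of at least 1 left 780 of all genes called higher. Quantile normalization without the block called 1 member higher (DNMT3A, 0.30) and 2 list genes lower, and turned EZH2 to 0.0045. Centring on genes of at least 10 FPKM called 2 members higher (DNMT3A 0.29, DNMT3B 0.31), 398 of all genes lower and 3 list genes lower, and turned EZH1 to 0.010 and EZH2 to 0.020. With the replicate block 2 members were higher and 3 lower (DNMT1 −0.25, DNMT3A 0.21, DNMT3B 0.23, TET1 −0.40, UHRF1 −0.27), with 3003 and 3048 of all genes and 11 and 32 list genes. The block with quantile normalization called 2 members higher and 2 lower (DNMT3A 0.30, DNMT3B 0.29, TET1 −0.45, UHRF1 −0.19), 2774 and 2816 of all genes and 13 and 11 list genes, with EZH2 at 0.0045. The block with centring called 4 members higher and 3 lower (DNMT1 −0.17, DNMT3A 0.29, DNMT3B 0.31, TET1 −0.32, TET2 0.31, TET3 0.25, UHRF1 −0.20), 4115 and 1676 of all genes and 14 and 13 list genes, with EZH1 at 0.010 and EZH2 at 0.020. Without both libraries numbered 3 and without the block, 1 member was lower (DNMT1, −0.30).

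Leaving out each library in turn without the block gave 0 to 1 members lower, 389 to 860 of all genes lower and 3 to 9 list genes lower, with 5 list genes higher each time. The fewest of all genes lower came without EZHi library 4 (389), vehicle library 4 (454) and vehicle library 1 (495), and 554 without EZHi library 1. DNMT1 ranged from −0.39 to −0.17, DNMT3A from 0.16 to 0.25, DNMT3B from 0.17 to 0.29, TET1 from −0.53 to −0.25, TET2 from 0.18 to 0.27, TET3 from 0.11 to 0.24 and UHRF1 from −0.45 to −0.15. Changes by over 1.5 times came without vehicle library 3 (DNMT1 −0.39, UHRF1 −0.45, TET1 −0.25), EZHi library 3 (DNMT1 −0.17, UHRF1 −0.15), vehicle library 1 (UHRF1 −0.17) and EZHi library 4 (TET3 0.11). Leaving out each pair with the block gave 0 to 2 members higher, 1 to 3 lower, 2336 to 2546 of all genes higher and 1788 to 2497 lower, and 9 to 11 list genes higher and 12 to 22 lower, the fewest members and list genes lower without pair 4. The differences then ranged from −0.30 to −0.20 for DNMT1, 0.19 to 0.25 for DNMT3A, 0.20 to 0.28 for DNMT3B, −0.44 to −0.37 for TET1, 0.17 to 0.29 for TET2, 0.13 to 0.22 for TET3 and −0.33 to −0.21 for UHRF1. The cause of these changes was not tested.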
